A study of Arabidopsis thaliana with 12 samples.

Results

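The CC-type glutaredoxin genes of Arabidopsis thaliana were followed in seedlings of the wild type and of the sulfur-response mutant slim1-1 under arsenite or cadmium. Glutaredoxins are small proteins that reduce disulfides with the help of glutathione. The CC type, named for the adjacent cysteines of its active site, occurs in land plants. Many of its members bind TGA transcription factors, and several contain a terminal motif that recruits TOPLESS corepressors, so that the class is known mainly for its part in gene regulation. Some members of the tandem group around AT4G15660 are known in Arabidopsis to respond to nitrate and to limit primary root growth, and others act in petal and anther development, hormone crosstalk or nitrogen signalling between shoot and root.

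Members were AT4G15660, picked because its level differed between the genotypes under arsenite, and 7 further CC-type genes named by locus, provided that the probe table of the array lists a probe set for that gene alone. Of these 8 genes 7 were measured, out of 13356 genes tested in all, and AT4G15670 was not analysed here. Since AT4G15660 was picked from the arsenite comparison, its difference there, and its contrast between metals, are given as a description with no test. In the RefSeq gene order of assembly TAIR10.1, AT4G15660, AT4G15670, AT4G15680, AT4G15690 and AT4G15700 stand next to each other with no other protein-coding gene between them. Probe sequences were not used here, so hybridisation between these neighbours was not tested. The rest of the 21-member class was listed beside them, and 17 of the 21 were measured.

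RNA was hybridised to single-colour Affymetrix arrays in 4 groups of 3 biological replicates, aged 14 days. These were Col-0 on 20 µM arsenite, slim1-1 on 20 µM arsenite, Col-0 on 100 µM cadmium and slim1-1 on 100 µM cadmium. SLIM1, an EIN3-like transcription factor, controls how the plant responds to sulfur shortage, and slim1-1 is the single mutant allele used. The protocol text describes 12 days without metal and 48 hours on arsenite for every sample, so the exposure of the cadmium samples is not known. No untreated seedlings were analysed here, and in RNA of seedlings fewer cells that express a gene and less RNA per cell cannot be told apart.

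Deposited values are on a log2 scale. Array medians lay between 6.85 and 6.94 in the arsenite set and between 5.58 and 5.64 in the cadmium set, so levels cannot be read directly across metals. Each array's lower quartile (4.55 to 4.62 under arsenite, 3.25 to 3.32 under cadmium) serves below as a mark of low signal, because no detection calls were available. The number of arrays limits the precision, and the median standard error of a genotype difference was 0.0914. No probe set is listed for SLIM1, so the genotype labels were not checked against the mutated gene. Of 10 shoot markers none was measured. Of 10 root markers 3 were, and their summed level was 7.28 to 7.88 in slim1-1 against 7.51 to 7.77 in wild type under arsenite, and 5.45 to 5.83 against 5.19 to 5.51 under cadmium. None of the 3 passed the test under either metal (adjusted p in limma, fitted over all genes, 0.138 at the lowest, with 3 at an unadjusted p under 0.05 under cadmium and 0 under arsenite). Under cadmium they differed in sign, at 0.41 for EXPA7, 0.50 for EXPA18 and -0.22 for AT3G54580. AT3G54580 was below the lower quartile on 2 of 3 mutant and 1 of 3 wild-type cadmium arrays, so its difference is not exact. EXPA7 and EXPA18 were above it on all cadmium arrays. The 25S rRNA control was lower on all cadmium arrays of slim1-1 (9.45 to 10.1) than of wild type (10.3 to 10.7), and the actin probe sets had a higher 3′ to 5′ difference in log2 level there (3.71 to 3.97 against 3.53 to 3.61). Under arsenite the same measure was lower on all mutant arrays for GAPDH (0.756 to 0.906 against 0.927 to 0.989) and higher for ubiquitin (0.881 to 0.947 against 0.780 to 0.825). The part of the root markers and of these controls in the results was not tested.

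The arsenite comparison asked how the glutaredoxin genes differed between slim1-1 and wild type. Among the 3 tandem genes tested, AT4G15690 passed the test, lower in the mutant, and AT4G15680 and AT4G15700 did not. AT4G15660 stood at 6.21, 6.07 and 5.84 on the wild-type arrays and at 5.13, 4.57 and 5.17 on the mutant arrays. The groups did not overlap, and the lowest mutant array lay only 0.0225 above the lower quartile of its own array. The group means were 6.04 ± 0.19 and 4.96 ± 0.33 (SD, n = 3 arrays), a 2.12-fold higher level in wild type, which is the difference the gene was picked for.

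AT4G15690, a neighbour of AT4G15660, fell in slim1-1, with a log2 difference of -0.80 ± 0.14 (SE, n = 3, limma adjusted p = 0.0216), or 1.74-fold. It measured 7.63, 7.17 and 7.41 in wild type and 6.42, 6.50 and 6.89 in slim1-1. All mutant values lay below all wild-type values, and all 6 lay above the lower quartile of their arrays, by 1.87 to 3.05. A fit of the arsenite arrays without those on cadmium lost the call for AT4G15690 (adjusted p = 0.126). It was also lost when replicate 2 of the mutant (adjusted p = 0.0913) or replicate 1 or 3 of wild type (adjusted p = 0.0679 and 0.0627) on arsenite was left out.

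AT4G15680 measured 7.15, 6.93 and 6.87 in wild type and 6.17, 6.27 and 6.83 in the mutant. Its highest mutant array thus lay close below its lowest wild-type array. The difference of -0.56 ± 0.14 did not pass (limma adjusted p = 0.0835), but it did pass without mutant arsenite replicate 3 (adjusted p = 0.0049) and with array weights (adjusted p = 0.00299). AT4G15700 stood at 6.80, 6.14 and 6.13 in wild type and at 5.20, 5.30 and 5.85 in slim1-1. These groups did not overlap either, and the difference of -0.91 ± 0.22 did not pass (limma adjusted p = 0.0781). Over 19 alternatives its adjusted p ran from 0.00737 to 0.229, with 3 under the threshold of 0.05: without mutant arsenite replicate 3, without wild-type cadmium replicate 3, and with array weights.

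**Figure D1:**
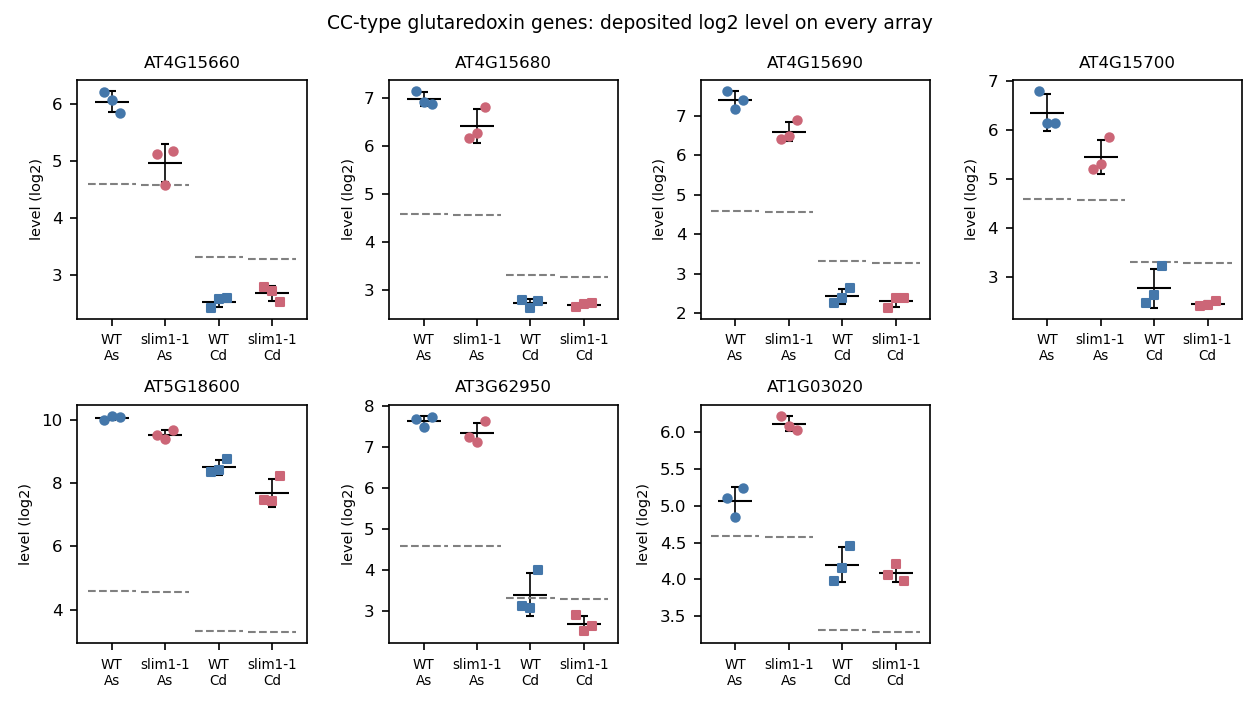
Level (log2, as deposited) of the 7 measured member genes on every array, by genotype and metal (As, arsenite; Cd, cadmium). Points are arrays, black bars the mean ± SD of 3 arrays, and dashed grey lines the mean lower quartile of the arrays of each group, so that the 4 tandem genes AT4G15660, AT4G15680, AT4G15690 and AT4G15700 are seen above it under arsenite and below it under cadmium.

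AT1G03020 went the other way. It measured 5.10, 4.85 and 5.24 in wild type and 6.22, 6.08 and 6.03 in slim1-1 under arsenite, so that every mutant array lay above every wild-type array. The mutant level was 2.07-fold that of wild type (log2 difference 1.05 ± 0.12, SE, n = 3, limma adjusted p = 0.00249). The call was kept in all 19 alternatives run, at adjusted p from 0.000456 to 0.0299. The wild-type arrays lay only 0.230 to 0.667 above their lower quartile, and the mutant arrays 1.42 to 1.67. At such wild-type levels the size is not exact.

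AT5G18600 stood at 9.99, 10.12 and 10.07 in wild type and at 9.51, 9.39 and 9.67 in slim1-1 under arsenite, far above the lower quartile (by 4.84 at the lowest). Its groups did not overlap, yet the difference of -0.54 ± 0.18 did not pass (limma adjusted p = 0.202). It passed without mutant cadmium replicate 3 (adjusted p = 0.0466) and with array weights (adjusted p = 0.0298). AT3G62950 measured 7.67, 7.48 and 7.73 in wild type and 7.24, 7.11 and 7.62 in the mutant. These groups overlapped, and the difference of -0.30 ± 0.21 did not pass (limma adjusted p = 0.618).

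Among the 6 members tested under arsenite, 1 was thus higher and 1 lower past the threshold, against 1.05% of all genes called in either direction, 0.457% higher and 0.591% lower. Of the 7 measured members 5 lay wholly below wild type and 1 wholly above, against 8.25% and 9.95% of all genes. Their median difference was -0.56, and that of all genes 0.01. AT4G15660 is among the 7 and was picked for this difference, so the median and the counts of non-overlapping groups are descriptions. The other members and the lists were chosen with earlier results of these data known, and the tandem genes varied together (r from 0.758 to 0.946). The shares of all genes, here and below, are thus context and not a test of the members.

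The cadmium comparison asked the same question in arrays that played no part in the choice of AT4G15660. That gene measured 2.42, 2.58 and 2.59 in wild type and 2.79, 2.71 and 2.53 in slim1-1. All 6 values lay below the lower quartile of their arrays (-0.54 to -0.90 relative to it), and the groups overlapped. The difference was 0.14 ± 0.15 (SE, n = 3, limma adjusted p = 0.589), with a 95% interval from -0.17 to 0.46. At a signal this low a genotype difference like that under arsenite was not detectable with certainty, and its absence is not shown. The 2 cadmium groups did not differ beyond their spread. Their deposited levels were lower than those under arsenite, but the array medians were lower too, so no order is read across metals.

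The 3 measured neighbours were low under cadmium as well. AT4G15680 lay between 2.63 and 2.79, AT4G15690 between 2.13 and 2.62, and AT4G15700 between 2.41 and 3.22 over the 6 arrays. Every one of these values was below its array's lower quartile, and the genotypes overlapped for each gene. Their differences were -0.04 ± 0.14, -0.13 ± 0.14 and -0.32 ± 0.22, at limma adjusted p of 0.91, 0.641 and 0.401.

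AT5G18600 fell in slim1-1 under cadmium. It measured 8.33, 8.39 and 8.77 in wild type and 7.45, 7.43 and 8.21 in the mutant, above the lower quartile by 4.12 to 5.46. All mutant arrays lay below all wild-type arrays, the closest of them mutant replicate 3. Wild type was 1.75-fold higher (log2 difference -0.80 ± 0.18, SE, n = 3, limma adjusted p = 0.0121). The call was lost without mutant cadmium replicate 2 (adjusted p = 0.0599) or wild-type cadmium replicate 3 (adjusted p = 0.0559). The direction was the same under arsenite, and the difference between the metals was -0.26 ± 0.25 (limma adjusted p = 0.65, 95% interval from -0.81 to 0.28).

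AT3G62950 measured 3.12, 3.06 and 3.99 in wild type and 2.88, 2.50 and 2.62 in slim1-1 under cadmium. The groups did not overlap, but only wild-type replicate 3 lay above its array's lower quartile. The difference of -0.73 ± 0.21 passed narrowly (limma adjusted p = 0.043), and at such levels the size is not exact. Without wild-type cadmium replicate 3 it shrank to -0.43 (adjusted p = 0.113). The call was lost in 10 of 19 alternatives, at adjusted p up to 0.146: when any 1 mutant cadmium array, any 1 wild-type arsenite array or wild-type cadmium replicate 3 was left out, with the cadmium arrays alone, with a trend and robust spread, and with the replicate block.

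AT1G03020, higher in slim1-1 under arsenite, measured 3.98, 4.16 and 4.45 in wild type and 4.06, 4.22 and 3.98 in the mutant under cadmium. The groups overlapped, and the values lay 0.664 to 1.14 above the lower quartile. The difference was -0.11 ± 0.12 (limma adjusted p = 0.623), with a 95% interval from -0.38 to 0.16. The genotype difference was smaller under cadmium than under arsenite by the interaction test (-1.16 ± 0.18, limma adjusted p = 0.00327), a call kept in all 18 alternatives run.

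Of the 7 members tested under cadmium 0 were higher and 2 lower past the threshold in limma, 2 had an unadjusted p under 0.05, and 12.3% of all genes were called in either direction, 6.62% higher and 5.71% lower. Those 2 were also the members whose groups did not overlap, lower in slim1-1, against 15.6% of all genes in that direction. The median difference was -0.13, beside -0.01 over all genes. The interaction passed for 1 of the 6 members tested, AT1G03020, with 4.3% of all genes called, 2.19% higher and 2.1% lower. For AT4G15660 it amounted to 1.23 on the log2 scale, given as a description. The other tandem genes did not pass, at 0.53 ± 0.20 for AT4G15680 (limma adjusted p = 0.171), 0.68 ± 0.20 for AT4G15690 (adjusted p = 0.0908) and 0.59 ± 0.31 for AT4G15700 (adjusted p = 0.346). AT4G15680 and AT4G15690 passed without mutant arsenite replicate 3 (adjusted p 0.00904 and 0.037) and with array weights (adjusted p 0.0188 and 0.0138). All cadmium values of the tandem genes lay below the lower quartile, so a smaller genotype difference there cannot be told apart from low signal.

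**Figure D2:**
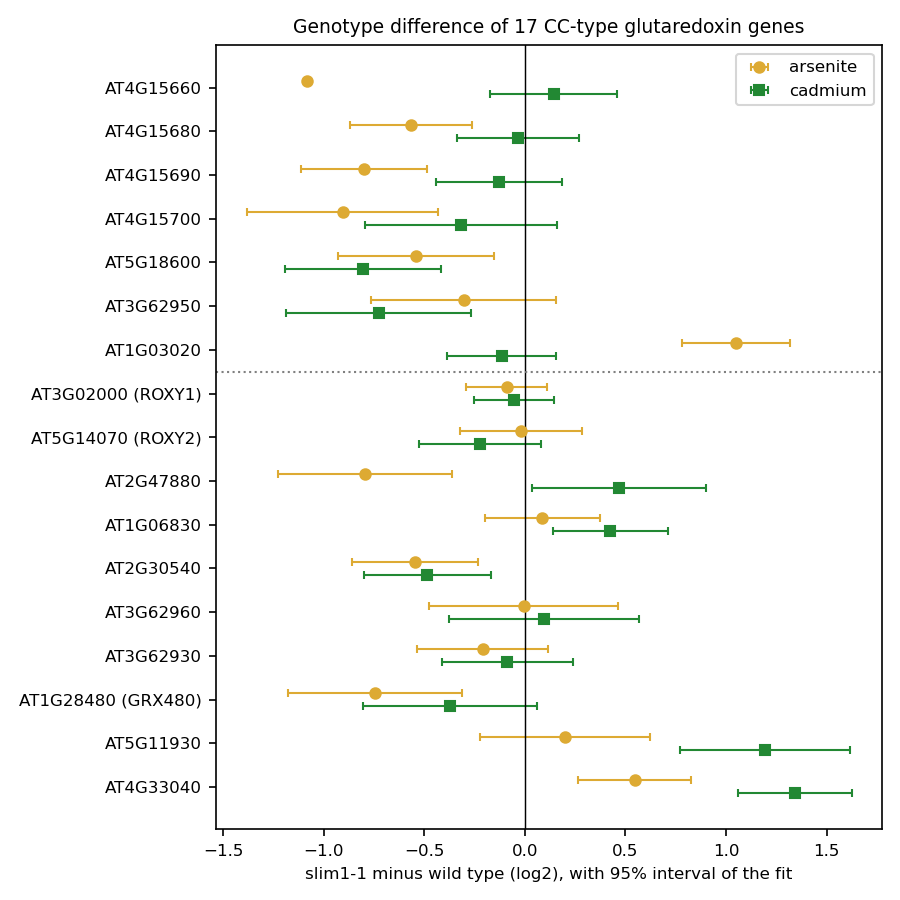
Genotype difference (slim1-1 minus wild type, log2) of the 17 measured CC-type glutaredoxin genes under arsenite (circles) and cadmium (squares), with members above the dotted line. Bars are 95% intervals of the fit, left out for AT4G15660 under arsenite, where it was picked for the difference of -1.08, and AT4G33040 and AT5G11930 lie farthest to the right under cadmium at 1.34 and 1.19.

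The wider class was set beside the members, and genes of it differed in both directions. AT4G33040 was the most changed of the 17 under cadmium. It measured 6.35, 6.59 and 5.995 in wild type and 7.82, 7.63 and 7.52 in slim1-1, with no overlap and all values 2.69 to 4.49 above the lower quartile. The mutant level was 2.54-fold that of wild type (1.34 ± 0.13, SE, n = 3, limma adjusted p = 5.35e-05), a call kept in all 20 alternatives run. Under arsenite it measured 6.85, 6.70 and 6.98 in wild type and 7.37, 7.41 and 7.38 in the mutant, again without overlap.

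That smaller difference of 0.55 ± 0.13 did not pass (limma adjusted p = 0.0726), though it did with array weights (adjusted p = 0.0122) and without wild-type cadmium replicate 2 or 3 (adjusted p 0.0465 and 0.0276). The interaction was 0.80 ± 0.18 for AT4G33040 (limma adjusted p = 0.0312). It was lost in 7 of the 12 fits that leave out an array, namely mutant arsenite replicate 2 or 3, wild-type arsenite replicate 1 or 3, mutant cadmium replicate 1 or 2 and wild-type cadmium replicate 1 (adjusted p 0.0568 to 0.0781).

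AT5G11930 measured 4.52, 4.64 and 4.42 in wild type and 6.13, 5.90 and 5.13 in slim1-1 under cadmium. The mutant arrays were spread over a unit, and all lay above all wild-type arrays. The mutant level was 2.29-fold that of wild type (1.19 ± 0.19, limma adjusted p = 0.00207), a call kept in all 19 alternatives run. Under arsenite all 6 values (3.91 to 4.43) were below the lower quartile, so the difference of 0.20 ± 0.19 (adjusted p = 0.749) says little. The interaction of 0.99 ± 0.28 did not pass (adjusted p = 0.0664), but did without mutant cadmium replicate 3 (adjusted p = 0.00124) and with array weights (adjusted p = 0.0257).

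AT2G47880 and AT1G06830 encode CEPD polypeptides, which move from shoot to root as signals of nitrogen demand. AT2G47880 stood at 7.78, 7.92 and 8.02 in wild type and at 7.34, 6.86 and 7.14 in slim1-1 under arsenite, without overlap (-0.79 ± 0.20, limma adjusted p = 0.0884). Under cadmium it measured 5.15, 4.98 and 5.62 in wild type and 5.81, 6.07 and 5.27 in the mutant, with overlap (0.47 ± 0.20, adjusted p = 0.157). The differences thus had opposite signs and neither passed. Without mutant cadmium replicate 3 both passed (adjusted p = 0.0456 and 0.034), as they did with array weights (adjusted p = 0.0117 and 0.0476).

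The interaction of AT2G47880 passed, at 1.26 ± 0.28 (limma adjusted p = 0.0277). It was lost with the replicate block (adjusted p = 0.113) and in 7 of 12 fits that leave out an array: mutant arsenite replicate 2, wild-type arsenite replicate 2 or 3, mutant cadmium replicate 1 or 2 and wild-type cadmium replicate 1 or 2 (adjusted p 0.0585 to 0.0739). AT1G06830 lay between 8.08 and 8.72 over the 6 arsenite arrays, with overlap (0.09 ± 0.13, adjusted p = 0.86). Under cadmium it measured 7.97, 8.10 and 7.87 in wild type and 8.37, 8.52 and 8.32 in slim1-1. All mutant arrays were higher, and the difference of 0.43 ± 0.13 just missed the threshold (adjusted p = 0.0523). It passed in 6 of 20 alternatives (adjusted p 0.014 to 0.0404): with the cadmium arrays alone, with a trend and robust spread, with array weights, among genes above the median level, and without mutant arsenite replicate 1 or 2.

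AT2G30540 was lower in slim1-1 under both metals without overlap. Under cadmium it measured 5.51, 5.90 and 5.63 in wild type and 5.03, 5.30 and 5.25 in the mutant (-0.48 ± 0.15, limma adjusted p = 0.0469). Under arsenite it measured 6.28, 6.19 and 6.02 against 5.92, 5.30 and 5.63 (-0.55 ± 0.15, adjusted p = 0.104). The cadmium call was lost in 11 of 19 alternatives (adjusted p up to 0.163), among them the fits without any 1 of the 6 cadmium arrays, any wild-type arsenite array or mutant arsenite replicate 3. The arsenite difference passed without mutant arsenite replicate 1 (adjusted p = 0.0233) and with array weights (adjusted p = 0.00749).

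GRX480 (AT1G28480), which binds TGA factors and links salicylic acid to jasmonate signalling, measured 10.14, 10.17 and 9.92 in wild type and 9.77, 9.30 and 8.93 in slim1-1 under arsenite. The groups did not overlap, and the difference of -0.75 ± 0.20 did not pass (limma adjusted p = 0.106). It passed without mutant arsenite replicate 1 (adjusted p = 0.0189) and with array weights (adjusted p = 0.0135). Under cadmium it lay between 6.45 and 7.23 with overlap (-0.37 ± 0.20, adjusted p = 0.262). ROXY1 and ROXY2, which act in petal and anther development, did not pass under arsenite (-0.09 ± 0.09 and -0.02 ± 0.14, adjusted p = 0.763 and 0.976) or cadmium (-0.05 ± 0.09 and -0.22 ± 0.14, adjusted p = 0.775 and 0.348). Nor did AT3G62960 (-0.01 ± 0.22 and 0.10 ± 0.22, adjusted p = 0.994 and 0.837) or AT3G62930 (-0.21 ± 0.15 and -0.09 ± 0.15, adjusted p = 0.627 and 0.78). AT3G62960 stands next to AT3G62950, which passed under cadmium.

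**Figure D3:**
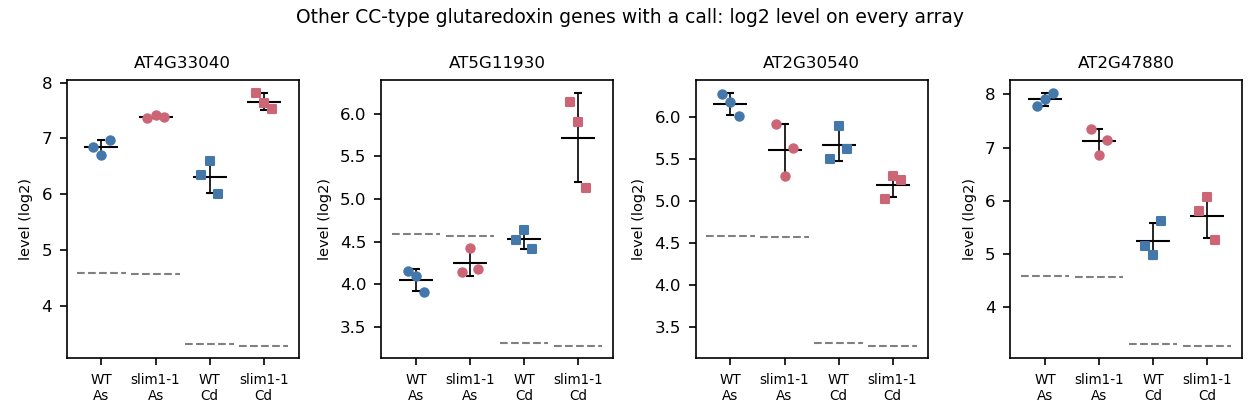
Level (log2, as deposited) of the 4 CC-type glutaredoxin genes outside the members that passed a test, on every array by genotype and metal. Points are arrays, black bars the mean ± SD of 3 arrays and dashed grey lines the mean lower quartile of each group's arrays; AT5G11930 lies below that line under arsenite, and the mutant lies above wild type under cadmium for AT4G33040 and AT5G11930.

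Over the whole class, 13 of 17 genes had a negative and 4 a positive difference under arsenite (median -0.30, all genes 0.01), and 8 lay wholly below wild type and 2 wholly above, against 8.25% and 9.95% of all genes. These counts and the median include AT4G15660, picked for this difference, and are descriptions. Of the 16 tested 2 passed, 1 in each direction, beside 1.05% of all genes, with 9 at an unadjusted p under 0.05 in limma. The number passing was 4 without mutant arsenite replicate 1 or 3, mutant cadmium replicate 3 or wild-type cadmium replicate 3, and 1 without mutant arsenite replicate 2 or wild-type arsenite replicate 1 or 3. It rose to 9 with array weights, a setting in which the calls over all 13356 genes rose from 140 to 744.

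Under cadmium, 11 of the 17 had a negative and 6 a positive difference (median -0.09, all genes -0.01), with 4 wholly below wild type and 3 wholly above, against 15.6% of all genes in each direction. Of the 17 tested 5 passed, 2 higher (AT4G33040 and AT5G11930) and 3 lower (AT5G18600, AT3G62950 and AT2G30540), beside 12.3% of all genes. The number was 3 without mutant cadmium replicate 1 or any wild-type arsenite replicate, and 2 without mutant cadmium replicate 2 or wild-type cadmium replicate 3. The interaction passed for 3 of 16 genes (AT1G03020, AT2G47880 and AT4G33040), beside 4.3% of all genes. It passed for 1 without mutant arsenite replicate 2, wild-type arsenite replicate 3, mutant cadmium replicate 1 or 2 or wild-type cadmium replicate 1.

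The sets of arrays were compared between metals only as a description, because metal cannot be told apart from dose, experiment and normalization here. The 3′ to 5′ difference of ubiquitin also lay at 0.780 to 0.947 on the arsenite arrays and at 1.37 to 1.43 on the cadmium arrays. For GAPDH (0.756 to 0.989 and 0.985 to 1.20) and actin (3.20 to 3.66 and 3.53 to 3.97) the sets overlapped. The part of these controls in the values below was not tested. The median gene was lower by 1.14 in wild type and by 1.16 in slim1-1 on the cadmium arrays, and differences are given relative to it. In wild type AT4G15690 stood at -3.85 relative to the median gene, AT4G15680 at -3.11, AT3G62950 at -3.10, AT4G15700 at -2.45 and AT4G15660 at -2.37. These genes were below the lower quartile on all or, for AT3G62950, 5 of the 6 cadmium arrays, so in both genotypes their differences are not exact and no order is read from them.

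In slim1-1 AT3G62950 stood at -3.50, AT4G15690 at -3.15, AT4G15680 at -2.56, AT4G15700 at -1.84 and AT4G15660 at -1.12. AT1G03020 stood at 0.27 in wild type and at -0.87 in the mutant. AT5G11930 stood at 1.61 in wild type and 2.63 in slim1-1, values that are not exact because it lay below the lower quartile on all 6 arsenite arrays.

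**Figure D4:**
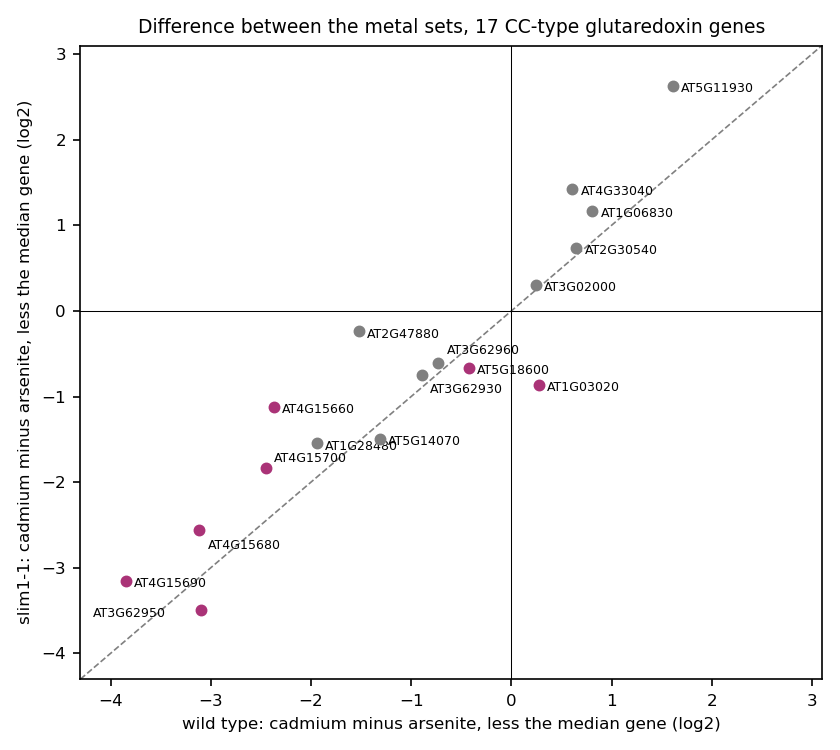
Difference between the cadmium and arsenite arrays (log2, less that of the median gene) in wild type and in slim1-1 for the 17 measured CC-type glutaredoxin genes, members in purple and others in grey, with the dashed line marking equal differences. AT4G15690, AT4G15680 and AT3G62950 lie at the lower left, and AT5G11930 at the upper right.

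Genes with a pattern like that of AT4G15660 were ranked by Pearson correlation over the 12 arrays, after the mean of each metal's 6 arrays had been taken off each gene. The arrays share these groups, and 96.1% of the variation of AT4G15660 that remained lay in the arsenite arrays, so the ranking mostly repeats the arsenite difference it was picked for. AT3G06890 (r = 0.912), AT5G17850 (r = 0.908), AT3G49480 (r = 0.906), AT3G13270 (r = 0.895) and AT1G24330 (r = 0.888) were the most alike. Their own arsenite differences were -0.47, -0.47, -0.22, -0.59 and -1.15. AT3G57790 (r = -0.947), AT4G14050 (r = -0.905) and AT1G53345 (r = -0.904) were the most opposite.

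Within the class, AT4G15690 was the most like AT4G15660 (r = 0.816, place 40 of the ranking), then AT4G15680 (r = 0.801, place 54), AT2G47880 (r = 0.777, place 76) and AT4G15700 (r = 0.758, place 95). Correlations between the 4 tandem genes ran from 0.758 to 0.946. AT1G03020 was the most opposite of the class over the 12 arrays (r = -0.84). Over the 6 arsenite arrays AT4G33040 was more opposite (r = -0.933, against -0.911 for AT1G03020). AT5G18600 correlated at 0.338 over the 12 arrays and at 0.949 over the 6 arsenite arrays, and AT2G30540 at 0.647 and 0.948. Those 6 arrays hold the genotype difference that AT4G15660 was picked for, so these values are a description.

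**Figure D5:**
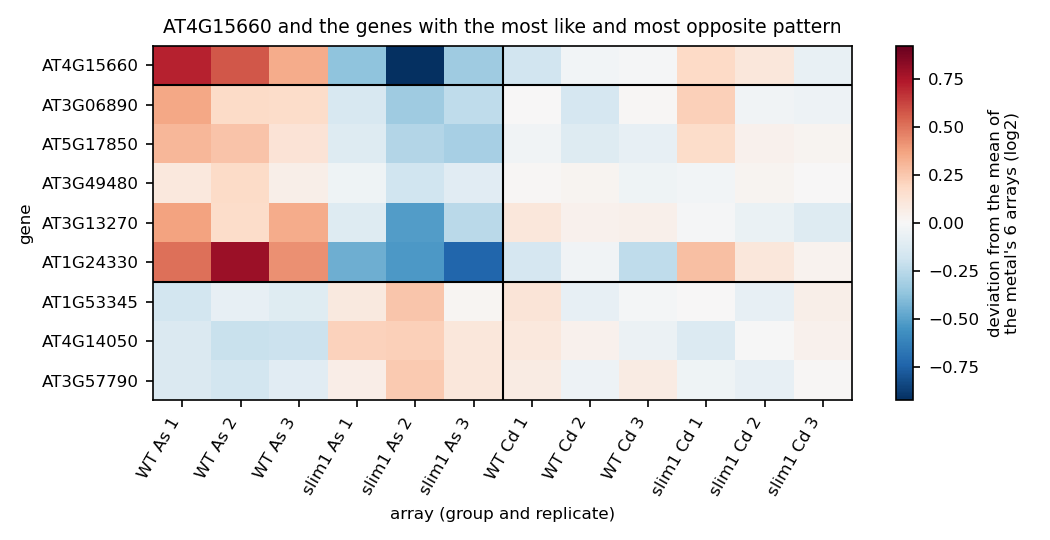
Deviation of each array from the mean of its metal's 6 arrays (log2, colour) for AT4G15660 in the top row, the 5 genes most like it and the 3 most opposite; columns are arrays by group and replicate. The wild-type arsenite arrays are high and the mutant ones low for AT4G15660, and its cadmium arrays deviate little.

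Genes that work beside glutaredoxins were listed as well. Of 10 glutaredoxins of the other classes 5 were measured, and 0 passed in limma under either metal, with 0 at an unadjusted p under 0.05. Of all genes 1.05% were called under arsenite and 12.3% under cadmium, shares that also belong beside the counts of the lists below. Under arsenite 2 of the 5 lay wholly below wild type and 0 wholly above, against 8.25% and 9.95% of all genes. Under cadmium 0 lay wholly below and 1 wholly above, against 15.6% in each direction. The cytosolic enzymes GRXC1 and GRXC2 differed by 0.12 ± 0.08 and -0.11 ± 0.08 under arsenite (adjusted p = 0.579 and 0.646) and by 0.09 ± 0.08 and 0.02 ± 0.08 under cadmium (adjusted p = 0.513 and 0.901). Their class ran from -0.11 to 0.12 under arsenite. The CC-type genes other than AT4G15660 ran from -0.91 to 1.05. A range widens with the number of genes, here 5 and 16, and the difference between these ranges was not tested.

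Glutathione reductases keep glutathione reduced, the form that glutaredoxins use. GR1 (AT3G24170) differed by 0.29 ± 0.12 under cadmium (limma adjusted p = 0.161, or 0.0359 with the cadmium arrays alone) and by 0.07 ± 0.12 under arsenite (adjusted p = 0.889). The organellar enzyme GR (AT3G54660) differed by -0.24 ± 0.11 (adjusted p = 0.196) and -0.12 ± 0.11 (adjusted p = 0.743). They were the 2 measured of 8 genes of glutathione synthesis and reduction, and 0 passed in limma, with 1 at an unadjusted p under 0.05 under cadmium and 0 under arsenite.

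Of 18 thioredoxin and thioredoxin reductase genes 6 were measured. Under cadmium 1 rose, TY1 (AT1G76760), a plastid thioredoxin (0.33 ± 0.09, limma adjusted p = 0.0369), beside 6.62% of all genes called higher, and under arsenite 0 passed, with 1 at an unadjusted p under 0.05. The TY1 call was lost in 8 of 20 alternatives (adjusted p 0.0552 to 0.129): a common median, quantile normalization, the cadmium arrays alone, the replicate block, and without mutant cadmium replicate 2 or 3 or wild-type cadmium replicate 1 or 2. Of 10 type-A response regulators, which report cytokinin signalling, 2 were measured. RR16 (0.02 ± 0.15 and 0.23 ± 0.15 under arsenite and cadmium, adjusted p = 0.98 and 0.363) and ARR15 (-0.04 ± 0.10 and -0.02 ± 0.10, adjusted p = 0.936 and 0.935) did not pass. The 15 TGA and TOPLESS genes and the 18 nitrate response genes listed were not analysed here, as the probe table gives none of them a probe set of its own.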

How the data were processed

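The deposited values are log2 expression values that the authors made with RMA, which the submitters' processing notes name (version not given in the sources used here; RMA corrects background, normalizes by quantiles and summarises probe sets). Options, annotation and genome build are likewise not given. Groups and replicate numbers came from the labels, and the series text calls the replicates biological.

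Of 22810 probe sets, 64 controls were left out; of the rest the platform's table lists 13513 with 1 gene and 503 with several, and does not list 8730. Where a gene had several probe sets (146 genes), the one with the highest mean was kept, which left 13356 genes, 13286 of them matched to RefSeq TAIR10.1. No filter on low values was used. A model with 4 group means was fitted over the 12 arrays with limma 3.58.1 (lmFit and eBayes) in R 4.3.3, with two-sided p-values adjusted by Benjamini-Hochberg over all genes and a threshold of 0.05. Intervals are the fit's 95% intervals. The scripts were tested on simulated data.

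All measured genes of the class were named whatever their p, and of the other lists the members past the threshold or, failing these, the 2 with the lowest p. Members and lists were chosen with earlier results of these data known. Alternatives were another scaling, fit, filter, probe set choice or block, and leaving out each array. Replicate numbers are shared between groups, but same-numbered arrays did not deviate together (r across genes from -0.334 to 0.0952 for the 6 pairs), so no block was used. Pairs of different number ran from -0.139 (mutant 2 with wild type 3) to 0.336 (mutant 1 with wild type 3), both under arsenite.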

Additional observations from a re-analysis of the deposited data

Results flagged for a closer look

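The genotype difference differed between the metals for 3 of the 16 CC-type glutaredoxin genes tested by the interaction term in limma, beside 4.3% of all genes. For AT1G03020, higher in slim1-1 under arsenite, the cadmium minus the arsenite difference was -1.16 (SE 0.18, adjusted p = 0.00327). AT2G47880 had a negative difference under arsenite and a positive one under cadmium, 1.26 apart (SE 0.28, adjusted p = 0.0277), though neither passed within its metal. The interaction of AT2G47880 was lost in 8 of 19 alternatives, among them the replicate block (adjusted p = 0.113). AT4G33040 had a positive difference under both metals, larger under cadmium by 0.80 (SE 0.18, adjusted p = 0.0312), a call lost in 7 of 19 alternatives (adjusted p 0.0568 to 0.0781). The call for AT1G03020 was kept in all 18 alternatives run. The part of the 25S rRNA, actin, GAPDH and ubiquitin controls in these values was not tested.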

How the results depend on the processing

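Differences of AT4G15660 kept their sign in all alternatives run: -1.35 to -0.89 under arsenite, 0.09 to 0.22 under cadmium (adjusted p 0.357 to 0.815) and 1.04 to 1.50 for the interaction, the highest with array weights. The arsenite difference is the one the gene was picked for and is part of the interaction, so their kept signs are only a description. Among the 16 class genes tested under arsenite, 2 passed; the number was 1 with the arsenite arrays alone, 9 with array weights, 0 of the 5 genes above the median level (limma, 4 at an unadjusted p under 0.05), and 1 to 4 when an array was left out. Under cadmium 5 of 17 passed, 3 of the 5 above the median level, and 2 to 6 without an array. Of all 6678 genes above the median level, 168 passed under arsenite and 1578 under cadmium. The interaction count of 3 became 6 with array weights and 1 to 4 without an array. Over all genes the 140 arsenite calls became 14 with the arsenite arrays alone, 744 with array weights, 296 over all probe sets and 50 to 250 without an array (250 without mutant arsenite replicate 1; 58, 50 and 88 without mutant replicate 2 and wild-type replicates 2 and 3 on arsenite). The 1646 cadmium calls became 3227 over all probe sets and 851 to 1794 without an array (851, 958 and 966 without mutant replicate 2 and wild-type replicates 1 and 3 on cadmium). A common median turned the split of higher and lower calls from 61 and 79 to 42 and 129 under arsenite, and from 884 and 762 to 657 and 1023 under cadmium. Array medians were higher on all mutant than on all wild-type arrays, on average by 0.044 under arsenite and 0.046 under cadmium. This setting takes that difference away. With the replicate number as a block, calls fell to 85 under arsenite and 1019 under cadmium, and of the class 2, 4 and 2 passed under arsenite, cadmium and the interaction. The fits with fewer genes or arrays differ by construction; for the others the cause was not tested. Low signal limits AT4G15660, AT4G15680, AT4G15690, AT4G15700 and AT3G62950 under cadmium and AT5G11930 under arsenite. AT1G03020 in wild type under arsenite lay only 0.230 to 0.667 above the lower quartile.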
